A study of Homo sapiens with 6 samples.

Results

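The hepatocyte identity genes are 52 protein-coding genes that mark a liver cell, among 19866 protein-coding genes of the 24 chromosomes. They were listed by name and role, with earlier results of these data known: 15 liver transcription factors, 22 secreted liver proteins and 15 liver enzymes. All 52 were found in the RefSeq gene table of GRCh38 patch 14. Each was scored for a peak within 1 kb of either annotated gene end, in the gene body, and within 50 kb of the gene.

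Binding had been profiled by CUT&Tag, a method that tethers a transposase to antibody-bound chromatin so that nearby DNA is tagged for sequencing. All libraries came from HepG2, an established line derived from a human liver carcinoma. The targets were ENO1 (enolase 1, an enzyme of glycolysis), H4K12la (lactylated lysine 12 of histone H4) and HDAC1 (a histone deacetylase), with 2 libraries per target and 6 in all. The labels state no treatment or genetic change of the cells, and they do not tie the replicates to separate cultures, so spread within a pair may be technical only.

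Hepatocyte identity is held by a circuit of transcription factors. HNF4A, the FOXA pioneer factors, the C/EBP factors and several nuclear receptors bind each other's genes and the genes of secreted proteins and metabolic enzymes. Their targets include albumin, apolipoproteins, clotting factors and the enzymes of the urea cycle, gluconeogenesis and bile acid synthesis. Lactylation is an acyl mark on histones that draws on lactate, and HDAC1 removes acyl groups from histones as a part of several chromatin complexes. HepG2 cells keep a part of the hepatocyte programme, and transcription was not measured here.

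The 2 ENO1 libraries gave 1592 and 1189 peaks, the 2 of H4K12la 5459 and 7568, and the 2 of HDAC1 5727 and 4567. Values below are fold enrichments of peak signal over background, the peak caller's own ratio, which is not scaled between libraries. Sequencing depth is unknown, so a gene without a peak may carry signal below the calling threshold. Between 2 targets, 2 libraries against 2, the smallest two-sided exact permutation p is 0.333, so no such pairwise test could pass 0.05. Targets were not tested against each other by any other test. Members are not replicates of a target, and their shares are set beside those of all protein-coding genes.

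The genes of hepatocyte identity held peaks about as often as protein-coding genes in general, and most held none at their ends. Both H4K12la replicates had a gene-end peak at 7 of the 52 genes (13.5%, exact binomial 95% interval 5.59 to 25.8), beside 10.5% of all protein-coding genes. Both HDAC1 replicates had one at 3 of 52 (5.77%, 1.21 to 15.9), beside 8.18%. Neither ENO1 replicate had a gene-end peak at any of the 52 genes, beside 0.0654% of all genes with one in both (0.166% in replicate 1 and 0.101% in replicate 2). The intervals cover counting error only, and each holds the share of all genes, so a share near the background is all that these counts show. H4K12la was in both replicates at HNF4A, HNF4G, FOXA1, ORM1, ASS1, TAT and CYP27A1, and HDAC1 at CEBPB, ATF5 and HPD. No gene was on both lists, but the share of all genes carrying both targets was not counted, so nothing about the members follows.

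By library, H4K12la had gene-end peaks at 8 and 8 of the 52 genes in replicates 1 and 2, beside 13.5% and 19.5% of all genes. HDAC1 had them at 9 and 3, beside 14.8% and 10.1% of all genes, so the 2 HDAC1 replicates differed 3-fold at these genes and the count of 3 in both was set by replicate 2. Averaged over both replicates, H4K12la had 15.4% ± 0 of the members and HDAC1 11.5% ± 8.16 (SD, n = 2), and ENO1 had 0%. Over all protein-coding genes H4K12la had 16.5% ± 4.28, HDAC1 12.5% ± 3.36 and ENO1 0.133% ± 0.0463 (SD, n = 2). The difference between H4K12la and HDAC1 at these genes was smaller than the spread between the HDAC1 replicates.

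**Figure D1:**
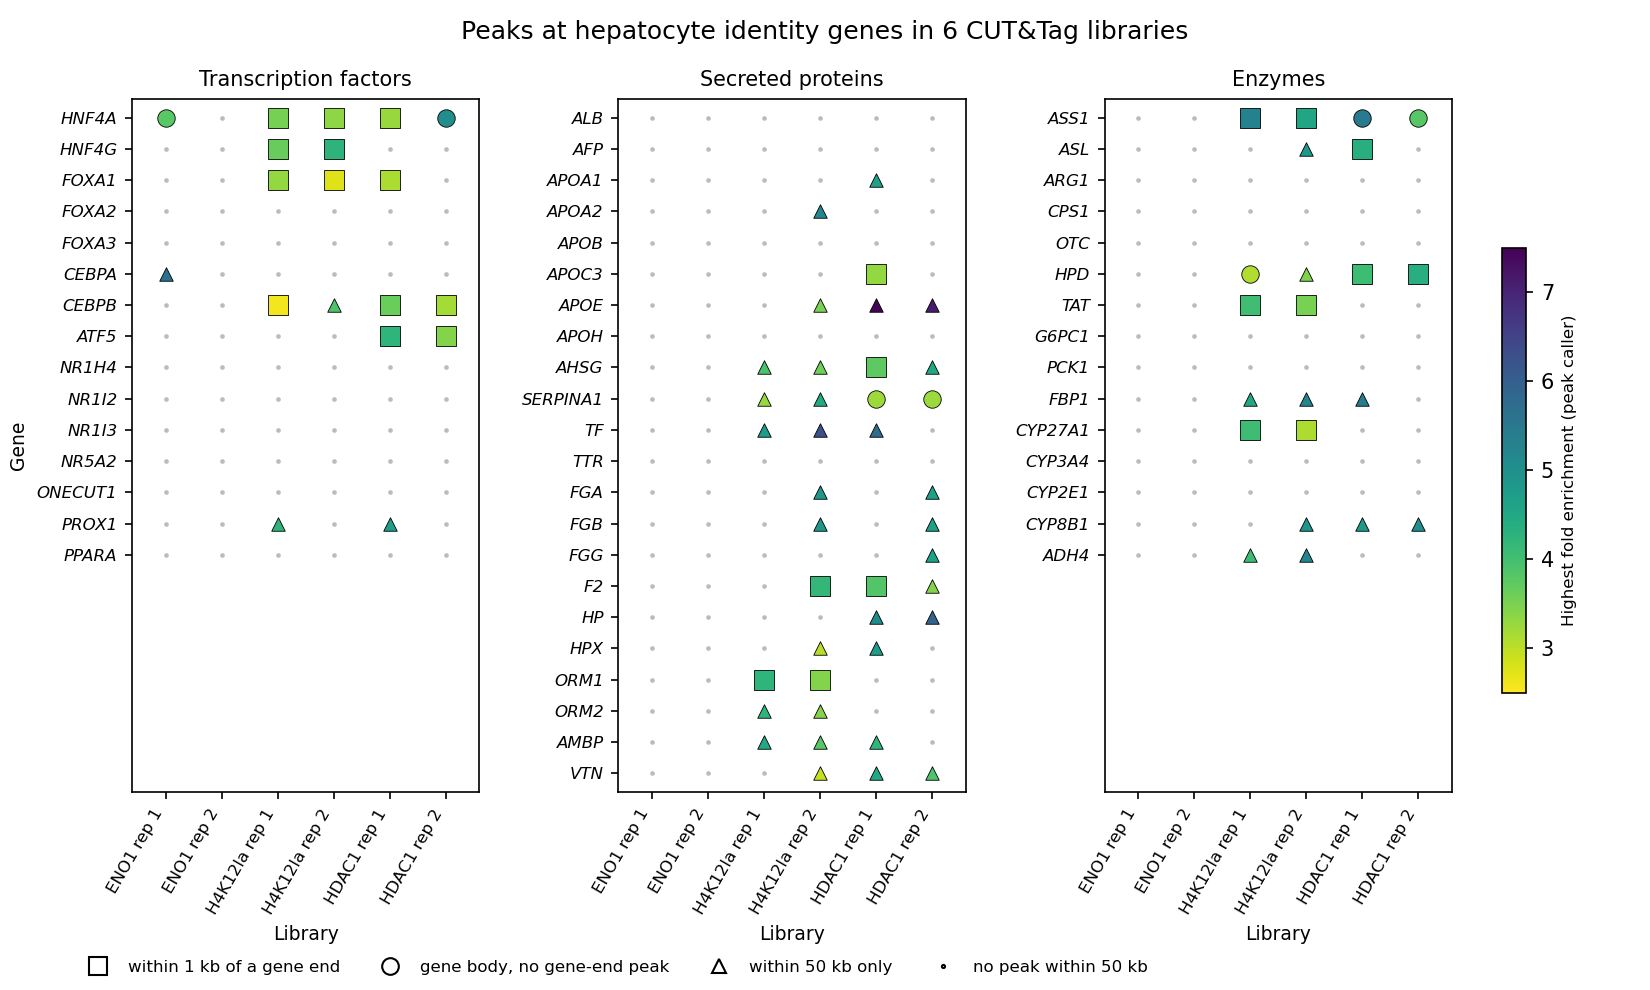
Fold enrichment at each of the 52 genes (rows, by role) in each of the 6 libraries (columns). The value is the highest at the gene ends, else in the body, else within 50 kb, so a stronger peak farther out is not shown. Squares mark a peak within 1 kb of a gene end, circles one in the gene body, triangles one within 50 kb only and dots none; H4K12la fills squares in both replicates at 7 genes, HDAC1 at 3 and ENO1 at none.

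In gene bodies, both replicates had a peak at 5 of 52 genes for H4K12la (9.62%, beside 12.8% of all genes) and at 5 for HDAC1 (9.62%, beside 8.07%). ENO1 had none in both (beside 0.423%), but 1 in replicate 1, at HNF4A (beside 1.3%), and 0 in replicate 2 (beside 0.634%). H4K12la had 6 in replicate 1 (beside 16.5%) and 6 in replicate 2 (beside 23%). HDAC1 had 9 in replicate 1 (beside 15.9%) and 5 in replicate 2 (beside 10.6%). Within 50 kb, both H4K12la replicates had a peak at 16 genes (30.8%, beside 30.8% of all genes) and both HDAC1 replicates at 12 (23.1%, beside 26.4%). No gene had one in both ENO1 replicates (beside 1.57%), while ENO1 replicate 1 reached 2 genes (beside 3.94%) and replicate 2 none (beside 2.14%). H4K12la replicate 1 reached 17 genes (beside 37.1%) and replicate 2 reached 25 (beside 47.6%). HDAC1 replicate 1 reached 21 (beside 40.3%) and replicate 2 reached 15 (beside 30.9%). Where the replicates' peaks also had to overlap, H4K12la had 13 genes (beside 26.9%), HDAC1 11 (beside 24.4%) and ENO1 0 (beside 1.47%).

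**Figure D2:**
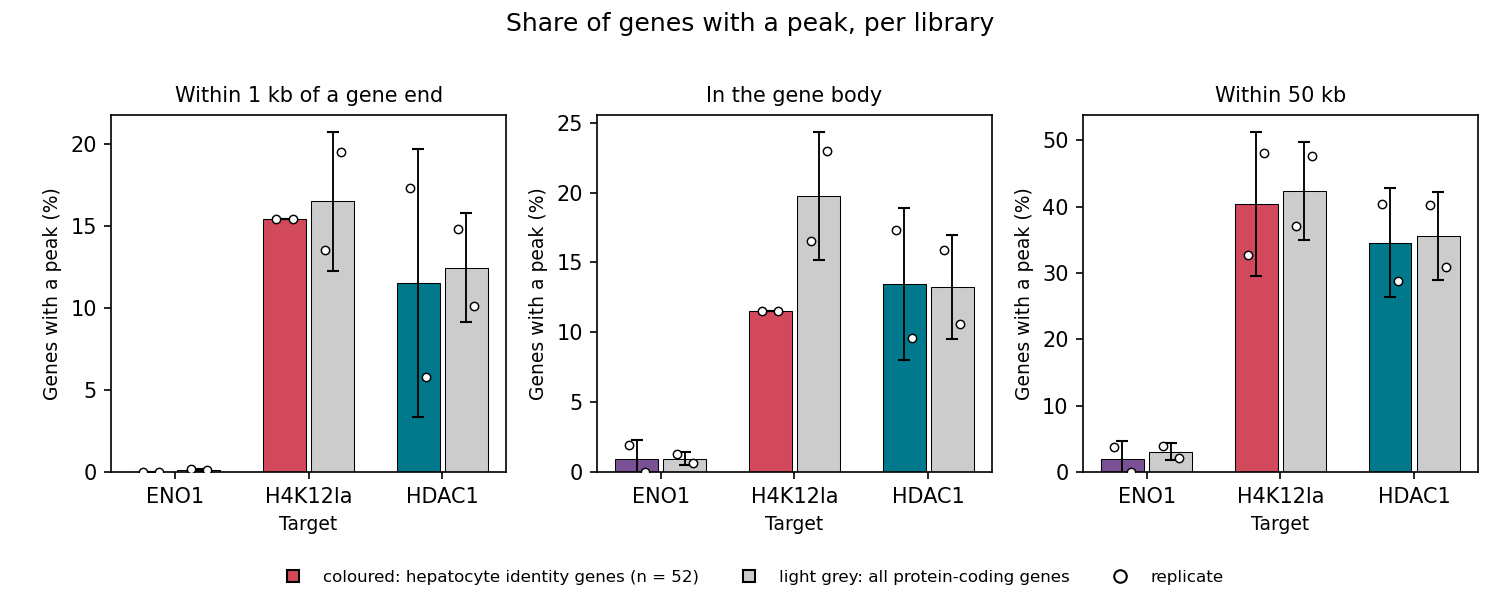
Share of genes with a peak (%, y axis) for each target (x axis) in 3 windows: the 52 hepatocyte identity genes in colour, all 19866 protein-coding genes in light grey. Bars are means of 2 replicates, open points the replicates and error bars the SD; at gene ends the H4K12la means are 15.4% and 16.5%, and the HDAC1 means 11.5% and 12.5%.

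Fold enrichment at the marked members had a lower median than at all marked genes. Over the 7 genes with gene-end H4K12la in both replicates, the lower of the 2 fold enrichments had a median of 3.42, beside 3.84 over the 2077 protein-coding genes so marked. Over the 3 HDAC1 genes the median was 3.42, beside 4.63 over 1626 genes. These medians are descriptions of 7 and 3 genes and were not tested.

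The counts by role rest on small numbers and stand beside 10.5% of all genes for H4K12la and 8.18% for HDAC1. Of the 15 transcription factors, 3 had gene-end H4K12la in both replicates (20%) and 2 had HDAC1 (13.3%). Of the 22 secreted proteins, 1 had H4K12la (4.55%, exact binomial 95% interval 0.115 to 22.8) and none had HDAC1 in both replicates (0 to 15.4). Of the 15 enzymes, 3 had H4K12la (20%) and 1 had HDAC1 (6.67%). The exact intervals of the 3 roles overlap for each target, which is no test between roles and does not show that their shares agree.

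The promoters of 7 starts that these results turn on are shown from RefSeq (GRCh38 patch 14), each from 250 bases before the listed start through the first 30 transcribed bases, 5′ to 3′ on the gene's strand. ALB is shown as the classic liver promoter without a peak, the HNF4A pair because only 1 of them carried a peak, ORM1 and CYP27A1 for H4K12la, and SERPINA1 and HPD for HDAC1. Capitals mark letters found by a search of both strands for GTTAAT (HNF1 type), AAGTCCA (HNF4 type), TGTTTAC (FOXA type), TATAAA and CACGTG (the E-box core).
ALB, chr4:73404037-73404316, plus strand: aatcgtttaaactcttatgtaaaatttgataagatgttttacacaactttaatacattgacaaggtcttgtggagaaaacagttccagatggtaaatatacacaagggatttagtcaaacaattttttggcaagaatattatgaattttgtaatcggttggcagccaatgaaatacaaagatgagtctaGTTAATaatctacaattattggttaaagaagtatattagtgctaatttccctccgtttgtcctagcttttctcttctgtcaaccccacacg
HNF4A, listed start 1, chr20:44355449-44355728, plus strand: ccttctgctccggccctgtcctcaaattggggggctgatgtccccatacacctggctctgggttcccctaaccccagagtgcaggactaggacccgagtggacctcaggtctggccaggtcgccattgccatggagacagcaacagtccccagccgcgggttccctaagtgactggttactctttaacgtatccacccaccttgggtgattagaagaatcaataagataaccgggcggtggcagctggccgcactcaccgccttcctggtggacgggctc
HNF4A, listed start 2, chr20:44400989-44401268, plus strand: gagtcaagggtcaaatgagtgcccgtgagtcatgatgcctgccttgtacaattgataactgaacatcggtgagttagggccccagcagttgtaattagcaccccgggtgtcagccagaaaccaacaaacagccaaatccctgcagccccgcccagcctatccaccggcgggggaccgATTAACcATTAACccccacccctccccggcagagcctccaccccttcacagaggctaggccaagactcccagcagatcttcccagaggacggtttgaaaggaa
ORM1, chr9:114322848-114323127, plus strand: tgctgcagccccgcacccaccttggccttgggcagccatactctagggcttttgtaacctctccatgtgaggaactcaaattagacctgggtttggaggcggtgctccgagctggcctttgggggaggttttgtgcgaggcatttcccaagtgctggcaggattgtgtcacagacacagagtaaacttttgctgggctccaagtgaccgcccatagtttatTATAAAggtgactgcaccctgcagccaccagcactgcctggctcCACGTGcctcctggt
CYP27A1, chr2:218781897-218782176, plus strand: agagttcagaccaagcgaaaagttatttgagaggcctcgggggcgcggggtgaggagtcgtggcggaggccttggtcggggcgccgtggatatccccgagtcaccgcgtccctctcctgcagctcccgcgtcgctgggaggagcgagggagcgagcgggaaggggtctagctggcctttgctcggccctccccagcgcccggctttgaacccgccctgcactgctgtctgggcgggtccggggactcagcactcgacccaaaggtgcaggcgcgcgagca
SERPINA1, listed start 2, chr14:94388573-94388852, minus strand: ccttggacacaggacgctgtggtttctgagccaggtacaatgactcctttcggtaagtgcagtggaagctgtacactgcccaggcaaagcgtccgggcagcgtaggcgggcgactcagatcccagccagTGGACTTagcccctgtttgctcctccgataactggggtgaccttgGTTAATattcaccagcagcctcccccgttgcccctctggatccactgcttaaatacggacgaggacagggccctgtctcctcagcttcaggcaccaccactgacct
HPD, chr12:121888582-121888861, minus strand: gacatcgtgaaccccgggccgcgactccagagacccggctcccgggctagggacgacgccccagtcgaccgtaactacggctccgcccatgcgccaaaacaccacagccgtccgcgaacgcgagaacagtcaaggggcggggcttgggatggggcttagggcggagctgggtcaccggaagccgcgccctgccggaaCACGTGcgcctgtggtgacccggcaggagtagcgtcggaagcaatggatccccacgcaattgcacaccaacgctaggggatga

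GTTAAT stood in the ALB promoter at position -61 from the start and, on the other strand, as a pair at -73 and -66 of the second HNF4A start. SERPINA1 held it at -76 and the HNF4 type letters at -121, and ORM1 had TATAAA at -29. CACGTG stood at -53 of HPD and at 15 of ORM1. HNF4A start 1 and CYP27A1 held none of the letters searched. A match is a description of the letters and not a bound site. No pair of marked matches overlaps.

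Shares of promoters with these letters were taken at 1 start per gene, the outermost listed. The matches at the second starts of HNF4A and SERPINA1 are therefore not in them. Among the 40 members with a listed start, GTTAAT was found in 22.5% of the 300-base promoters, TATAAA in 27.5%, AAGTCCA in 10%, CACGTG in 7.5% and TGTTTAC in 2.5%. Over 15842 protein-coding genes with a listed start, the shares were 5.3%, 9.75%, 2.78%, 8.82% and 2.67% in the same order. GTTAAT was in 6 of 16 promoters of secreted proteins (37.5%), 2 of 12 of enzymes (16.7%) and 1 of 12 of transcription factors (8.33%). TATAAA was in 2 of 16 (12.5%), 6 of 12 (50%) and 3 of 12 (25%) in the same order. The shares were not matched for base composition. The median share of G and C bases was 54.2% in the members' promoters and 62.7% over all genes with a listed start.

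HNF4A, the nuclear receptor at the centre of the liver circuit, had 7 peak regions within 50 kb, the most of any member. The gene lies on chromosome 20, 44355699 to 44434596, plus strand. Its body is longer than the members' median of 12.7 kb, so more sequence was searched, and genes of like length were not counted. The region 44.7 kb away lay at the end of FITM2, with H4K12la in replicate 2 alone (3.51-fold). The region 41.2 kb away lay at the end of TTPAL, with H4K12la at 3.04-fold and 3.2-fold in replicates 1 and 2. HNF4A has 2 listed starts, 44355699 and 44401239. H4K12la lay on the first start (44355400 to 44356344) at 2.99-fold and 3.32-fold in replicates 1 and 2. The second start carried no peak within 1 kb in any library. Inside the gene, 3569 bases downstream of the second start at its middle, a region (44404482 to 44405135) held peaks in 5 of the 6 libraries. There ENO1 replicate 1 had 3.80-fold and replicate 2 no peak. H4K12la reached 3.44-fold and 3.34-fold at that place, and HDAC1 was higher in both of its libraries, at 4.90-fold and 5.07-fold. It was 1 of 2 places near the 52 genes with both replicates of H4K12la and of HDAC1, and 1 of 2 with any ENO1 peak.

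At 2 other places in the HNF4A body a single target was called. H4K12la had 4.01-fold and 3.85-fold at 44370553 to 44371100, between the starts, where no HDAC1 peak was called. HDAC1 had 3.53-fold and 3.80-fold at 44411070 to 44411488, where no H4K12la peak was called. At the 3′ end (44433810 to 44434648) H4K12la had 3.55-fold and 3.34-fold, and HDAC1 3.27-fold in replicate 1 alone. The table of genes used here does not give exons, so these places are named by the gene body only.

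**Figure D3:**
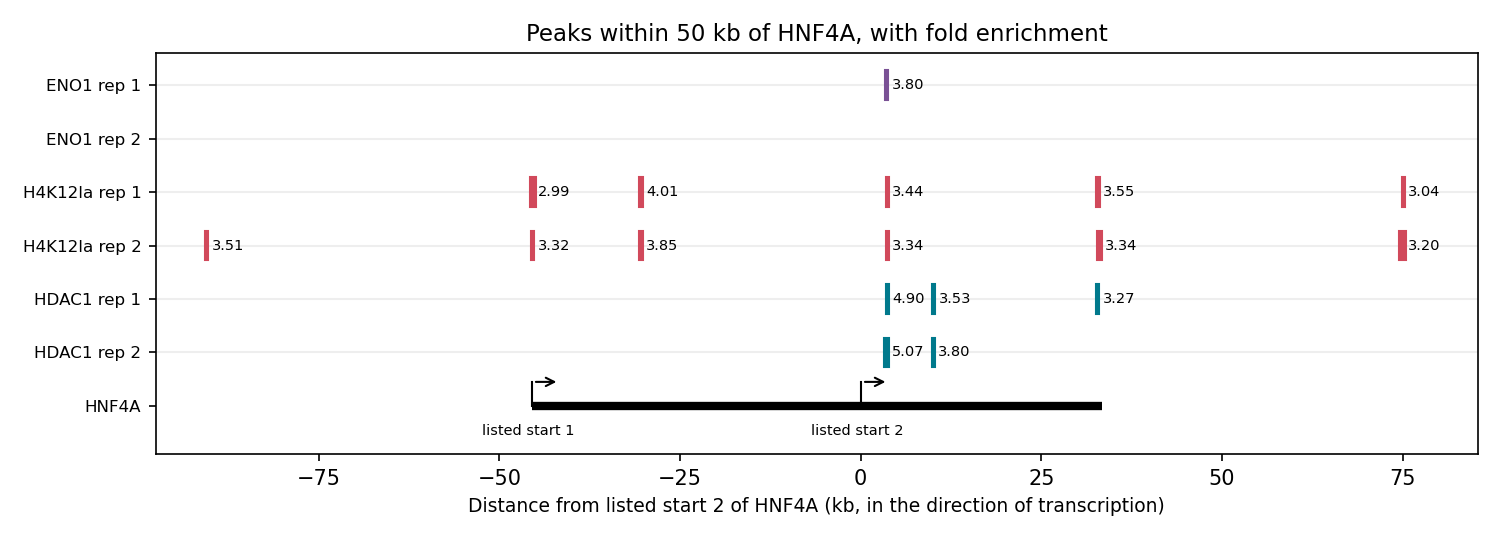
Peaks within 50 kb of HNF4A in each library (rows), placed by distance in kb from the second listed start (x axis), with the fold enrichment beside each peak. The black bar is the gene; H4K12la covers start 1 in both replicates, start 2 is free of peaks, and 5 libraries share 1 place just downstream of it.

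The other transcription factors with gene-end peaks in both replicates had them for 1 target each. HNF4G, a close relative of HNF4A, had H4K12la at its annotated left end (chromosome 8, 75407161 to 75409039) at 3.67-fold and 4.27-fold. It had no HDAC1 or ENO1 peak within 50 kb. No start or strand was listed for HNF4G, so that end was not named as start or 3′ end. FOXA1, a pioneer factor that opens closed chromatin, had H4K12la upstream of its start (chromosome 14, 37595635 to 37596264) at 3.31-fold and 2.77-fold. HDAC1 replicate 1 had 3.13-fold there and replicate 2 no peak. That place also lies within 1 kb of the neighbouring TTC6, so the peak cannot be given to FOXA1 alone.

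CEBPB, a C/EBP factor of the acute phase response, had HDAC1 just upstream of its start (chromosome 20, 50189258 to 50190526) at 3.65-fold and 3.17-fold. H4K12la replicate 1 had 2.58-fold there and replicate 2 no peak. A further place 17.7 kb away (50171775 to 50172897), at no gene end, held H4K12la in both replicates at 3.10-fold and 3.89-fold, and HDAC1 in replicate 1 at 3.36-fold. ATF5, a stress-responsive factor high in liver, had only HDAC1, at 4.24-fold and 3.42-fold (chromosome 19, 49929525 to 49930030). The ATF5 peak lies in the gene body and within 1 kb of the ends of IL4I1 and NUP62.

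FOXA2 and FOXA3, which act with FOXA1, had no peak within 50 kb in any of the 6 lists. The same held for the bile acid receptor NR1H4, the xenobiotic receptors NR1I2 and NR1I3, NR5A2, ONECUT1 and the fatty acid sensor PPARA, 8 of 15 factors in all (53.3%, beside 34.9% of all genes). For FOXA2 the nearest peak of all 4 H4K12la and HDAC1 libraries lay 56.8 kb away, just past the limit, and for NR5A2 those 4 had it 310 kb away. Also just past it were H4K12la replicate 2 at NR1I3 (51.8 kb) and HDAC1 replicate 1 at PPARA (54.7 kb). CEBPA, the C/EBP factor of mature hepatocytes, had a single ENO1 peak in replicate 1 (5.62-fold, 49.5 kb away) and no peak of the other targets within 50 kb. PROX1 had 1 H4K12la peak (4.26-fold) and 1 HDAC1 peak (4.72-fold) within 10 kb, at different places and each in replicate 1 alone.

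Within 50 kb, both replicates had a peak at 6 of the 22 secreted proteins for H4K12la (27.3%, beside 30.8% of all genes) and at 6 for HDAC1 (27.3%, beside 26.4%). ORM1, the acute phase glycoprotein orosomucoid, was the only secreted protein with a gene-end peak in both replicates of a target, H4K12la at 4.24-fold and 3.42-fold over its start (chromosome 9, 114322884 to 114323606). Its neighbour ORM2 is a near-identical copy, so reads may be shared between them, and the same peak is the one within 50 kb of ORM2. F2, which encodes prothrombin, had 1 H4K12la and 1 HDAC1 replicate over its start (chromosome 11, 46719035 to 46719741), H4K12la replicate 2 at 4.18-fold and HDAC1 replicate 1 at 3.86-fold. HDAC1 replicate 2 peaked 18.3 kb from F2, at the ends of ARHGAP1 and ZNF408 (3.43-fold). Both HDAC1 replicates thus counted for F2 within 50 kb without sharing a place. AHSG, the serum carrier fetuin, had HDAC1 over its start in replicate 1 alone (3.74-fold), and APOC3, an inhibitor of lipoprotein lipase, likewise at its end (3.31-fold).

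SERPINA1, which encodes the protease inhibitor alpha-1 antitrypsin, had HDAC1 on its second listed start in both replicates (chromosome 14, 94388361 to 94388886) at 3.23-fold and 3.26-fold. Known hepatocyte transcripts of this gene begin at a promoter downstream of the one used in macrophages. The region lies over 1 kb from the annotated gene end, so the gene-end count leaves it out. A second place, 30.2 kb from the gene (94345643 to 94346571), held HDAC1 at 5.97-fold and 4.51-fold, and H4K12la in replicate 2 at 4.46-fold. H4K12la replicate 1 peaked at another place, 34.1 kb away (3.29-fold), so both replicates counted within 50 kb without sharing a place.

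**Figure D4:**
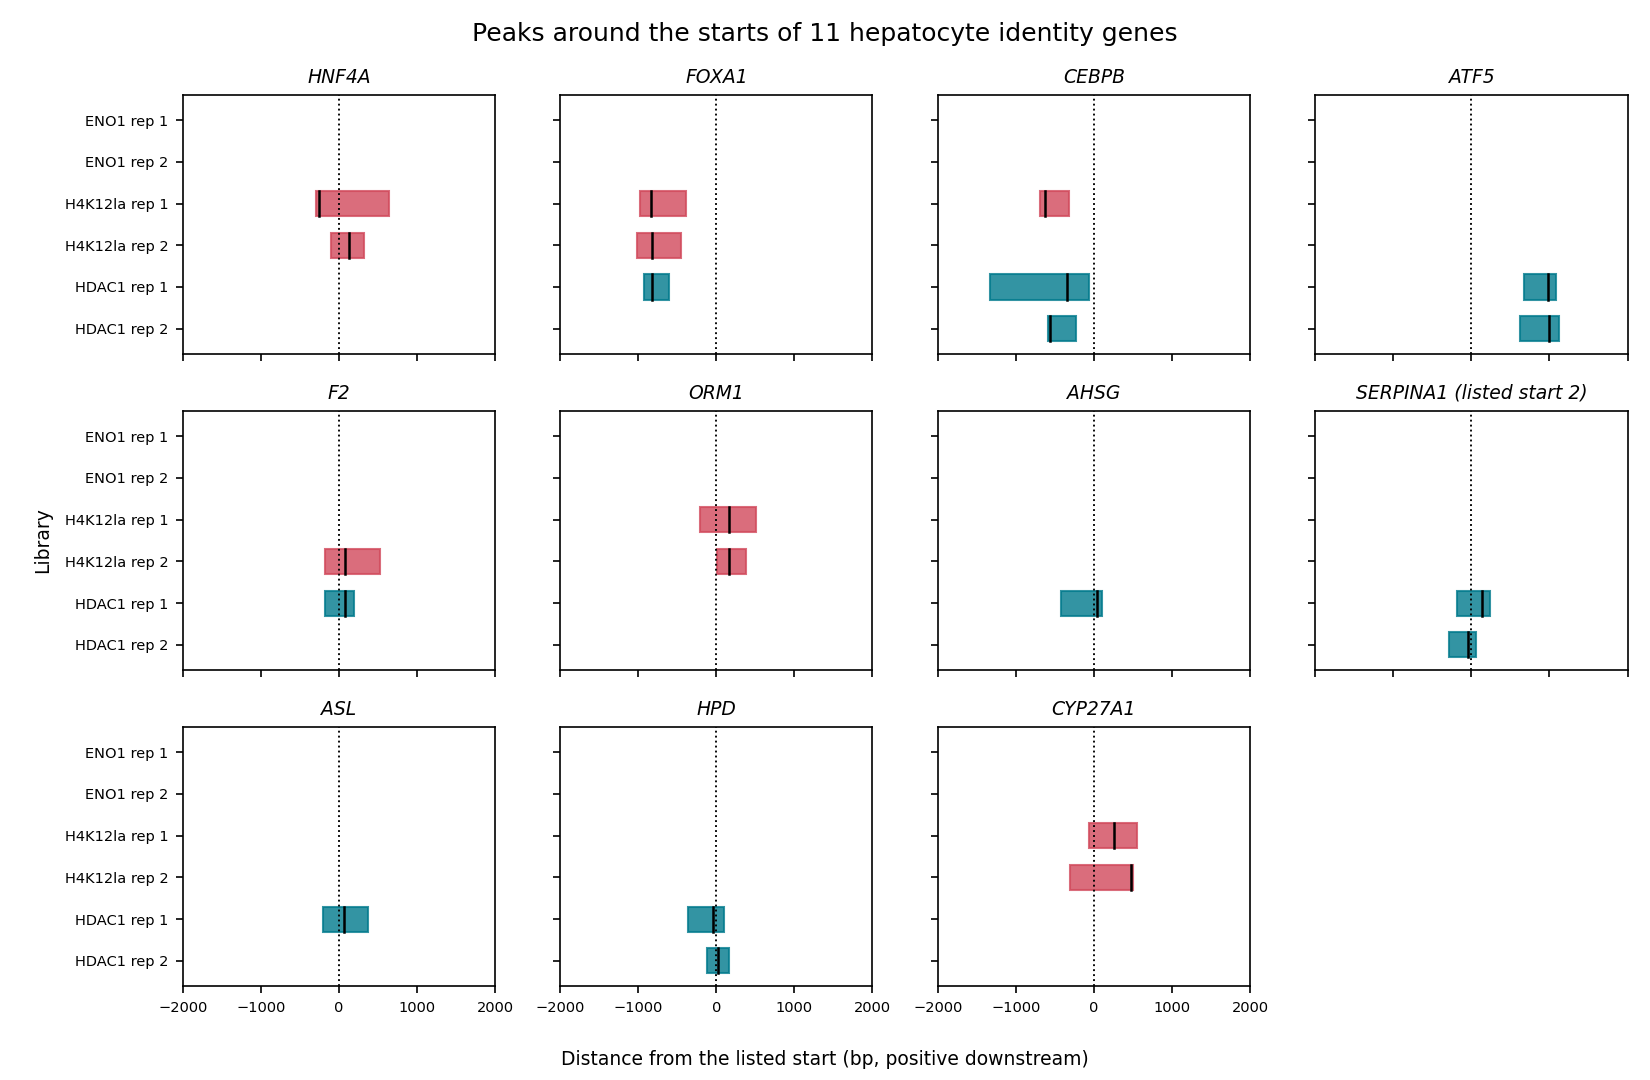
Peaks around the listed start (dotted line) of 11 members, 1 start each, in each library (rows); the x axis is the distance in bp, positive downstream, and black ticks mark summits. No ENO1 peak is present, and only FOXA1, CEBPB and F2 have peaks of H4K12la and HDAC1 together, none of them in all 4 libraries.

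No peak within 50 kb in any list was found for 5 of the 22 secreted proteins (22.7%, beside 34.9% of all genes). They were ALB (albumin, chromosome 4, 73404287 to 73421482), its fetal relative AFP (alpha-fetoprotein), APOB (the structural protein of low-density lipoprotein), APOH and TTR (transthyretin). The nearest H4K12la peaks to ALB lay 145 kb and 144 kb away in replicates 1 and 2, and the nearest HDAC1 peaks 145 kb away in both. The fibrinogen genes FGA, FGB and FGG, which stand side by side, had no peak at their ends or in their bodies. All 3 had the same distal HDAC1 peak within 50 kb, called in replicate 2 alone (4.65-fold, 2.85 kb from FGB). FGA and FGB also had an H4K12la peak of replicate 2 alone (4.86-fold), at the end of PLRG1.

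Of the other secreted proteins, several had peaks in both replicates within 50 kb, often at other genes. The strongest was HDAC1 near APOE, a ligand of lipoprotein receptors, at 7.45-fold and 7.13-fold (chromosome 19, 44890495 to 44891197). That place lies at the end of TOMM40, a mitochondrial import gene, and 14.6 kb from APOE. HDAC1 near the haemoglobin scavenger HP (3.91-fold and 5.90-fold) lay at DHODH, near AHSG (4.35-fold and 4.53-fold) between TBCCD1 and DNAJB11, and near the adhesion protein VTN (4.36-fold and 3.89-fold) at TNFAIP1. H4K12la had places at no gene end near TF, which encodes transferrin (4.78-fold and 6.26-fold, 9.13 kb), AHSG (3.94-fold and 3.58-fold, 13 kb) and AMBP (4.51-fold and 3.79-fold, 29.7 kb). At the TF place HDAC1 replicate 1 also had 5.75-fold.

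Of the urea cycle enzymes, ASS1 and ASL had gene-end peaks and ARG1, CPS1 and OTC had none. ASS1, which makes argininosuccinate, had peaks of both targets near its 3′ end (chromosome 9, 130498699 to 130500375) and none at its starts. At this place H4K12la reached 5.33-fold and 4.57-fold, and HDAC1 reached 5.46-fold and 3.82-fold. The H4K12la peaks reach within 1 kb of the gene end and the HDAC1 peaks do not, so only H4K12la counted as gene-end. ASL, the next enzyme, had HDAC1 on its start in replicate 1 alone (4.35-fold). ARG1, CPS1 and OTC, which complete the cycle, had no peak within 50 kb in any list. The nearest H4K12la or HDAC1 peak lay 306 kb from CPS1 and 368 kb from OTC. For ARG1 it was just past the limit, an H4K12la peak of replicate 2 at 51.1 kb.

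The enzymes of amino acid and sterol breakdown held the remaining gene-end peaks. CYP27A1, a mitochondrial sterol hydroxylase of bile acid synthesis, had H4K12la over its start at 4.06-fold and 3.11-fold (chromosome 2, 218781845 to 218782698). TAT, the tyrosine aminotransferase, had H4K12la at its annotated left end at 4.04-fold and 3.53-fold (chromosome 16, 71564655 to 71565614). TAT had no listed start or strand here, so that end was not named as start or 3′ end. HPD, the next enzyme of tyrosine breakdown, had HDAC1 on its first start at 4.08-fold and 4.36-fold (chromosome 12, 121888445 to 121888972). HPD shares that start region with PSMD9, a proteasome assembly gene, so the peak cannot be given to HPD alone. Its second start had H4K12la in replicate 1 alone, at 3.09-fold.

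Of the 15 enzymes, 7 had no peak within 50 kb in any list (46.7%, beside 34.9% of all genes). Beside ARG1, CPS1 and OTC, these were G6PC1 and PCK1, which control glucose output, and the drug-metabolising cytochromes CYP3A4 and CYP2E1. FBP1, another enzyme of gluconeogenesis, had H4K12la 48.2 kb away at 4.24-fold and 5.26-fold, with HDAC1 at 5.46-fold in replicate 1. CYP8B1, a sterol hydroxylase that sets the makeup of bile acids, had HDAC1 within ACKR2, 42.4 kb away, at 4.79-fold and 5.06-fold, and H4K12la there in replicate 2 at 4.89-fold. ADH4, an alcohol dehydrogenase, had H4K12la in each replicate at a different place, 4.06-fold in replicate 1 at the end of ADH5 and 5.23-fold in replicate 2, 5.99 kb from ADH4.

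In all, 20 of the 52 genes (38.5%, exact binomial 95% interval 25.3 to 53.0) had no peak within 50 kb in any of the 6 lists, beside 34.9% of all protein-coding genes. They were 8 transcription factors, 5 secreted proteins and 7 enzymes. At gene ends 38 of 52 had none (73.1%, beside 70.9%), and in gene bodies 40 (76.9%, beside 66.4%). The members' bodies were short, with a median of 12.7 kb beside 24.5 kb for all protein-coding genes, and the part of length in the gene-body share was not tested. Of the members, 14 were taken as hepatocyte markers: ALB, APOA1, APOA2, APOB, APOH, AHSG, SERPINA1, TF, TTR, FGA, FGB, FGG, HNF4A and CEBPA. At gene ends H4K12la was in both replicates at 1 of them, HNF4A (beside 10.5% of all genes), HDAC1 at 0 (beside 8.18%) and ENO1 at 0, and 12 of 14 had no gene-end peak in any list (beside 70.9%). In gene bodies H4K12la was in both replicates at 1 of the 14, HDAC1 at 2, and 11 had no peak (beside 12.8%, 8.07% and 66.4%). Within 50 kb H4K12la was in both replicates at 4, HDAC1 at 3, and 4 had no peak (beside 30.8%, 26.4% and 34.9%).

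By place, the 52 genes had 60 distinct peak regions within 50 kb. Both H4K12la replicates were present at 17 of them, both HDAC1 replicates at 14 and both ENO1 replicates at none. Both replicates of H4K12la and of HDAC1 were at 2 regions, in HNF4A and ASS1, and 27 regions rested on 1 library. With any replicate counted, 16 regions held H4K12la and HDAC1, 24 held H4K12la without HDAC1 and 19 held HDAC1 without H4K12la. The same region counts were not made around all genes, so they describe these places and show no trait of the members. Of 41 regions outside a member's own windows, 18 lay at the end of another protein-coding gene, members included, and 23 at no other gene end. Position alone does not assign a peak to a gene. With both replicates, 4 of 7 such HDAC1 regions and 2 of 8 such H4K12la regions lay at the end of another gene.

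The promoters of the members held fewer CpG pairs than those of most genes, a difference given as a description. CpG observed over expected, the number of CG pairs relative to that given by the base composition, had a median of 0.249 over 40 members and 0.761 over 15842 genes, in 300 bases around the outermost listed start. At a threshold of 0.6, 12 of 40 members were CpG-rich (30%), beside 65.6% of genes. The secreted proteins had 1 of 16, which was TF at its upstream start, the enzymes 5 of 12 and the transcription factors 6 of 12. ALB had 0.481 and HNF4A 0.409 at its first start, below the threshold, while CYP27A1 had 0.828 and HPD 0.96, as their printed sequences show by their many CG pairs.

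Gene-end peaks were more frequent at CpG-rich than at CpG-poor promoters over all genes, and the members' counts ran the same way. Both H4K12la replicates had a gene-end peak at 15.2% of CpG-rich and 3.54% of CpG-poor genes, and both HDAC1 replicates at 11.7% and 3.19%. Among the members, H4K12la was in both replicates at 3 of 12 CpG-rich genes (25.0%) and 2 of 28 CpG-poor genes (7.14%), and HDAC1 at 2 of 12 (16.7%) and 1 of 28 (3.57%). ENO1 was in both replicates at none of them, beside 0.0289% of CpG-rich and 0.0733% of CpG-poor genes. For ASS1, a CpG-rich member, the H4K12la peak lay at the 3′ end and not at the promoter. By distance to a listed start, both replicates lay within 1 kb at 4 of 40 members for H4K12la (beside 11.8%), at 4 for HDAC1 (beside 8.89%) and at 0 for ENO1 (beside 0.0442%). The CpG-poor members with H4K12la in both replicates were HNF4A and ORM1, and ATF5 was the one with HDAC1. No gene-end peak in any list was found at 6 of the 12 CpG-rich members (50%, beside 58.9% of CpG-rich genes), CEBPA, FOXA3, ONECUT1, PPARA, TF and FBP1, and at 23 of the 28 CpG-poor members (82.1%, beside 88.7%). Whether CpG content accounts for the members without peaks was not tested.

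**Figure D5:**
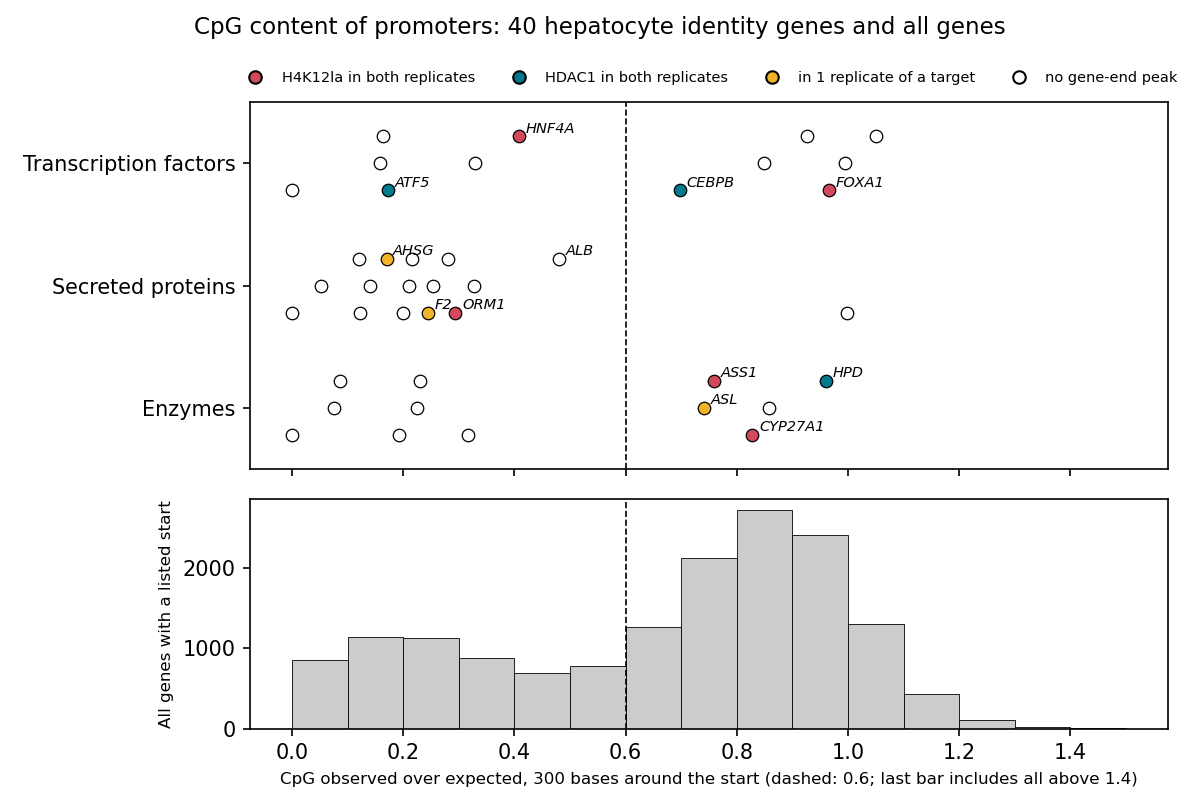
CpG observed over expected (x axis) of 40 members by role, coloured by gene-end peaks (upper panel), above the number of genes per bin over all 15842 genes with a listed start (lower panel). Of the secreted proteins 15 of 16 lie left of the dashed line at 0.6, and 65.6% of all genes lie right of it.

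Wider lists of liver genes leave out the 52 members. Of 25 further liver transcription factors, H4K12la was in both replicates at the ends of 1 (4.0%), HHEX (3.50-fold and 3.10-fold), an early liver bud factor, and HDAC1 at 1, NR0B2 (4.18-fold and 3.95-fold), the repressor of bile acid synthesis. Of 54 further secreted proteins, H4K12la was at 2 (3.7%), the clotting factor genes F5 (3.80-fold and 4.74-fold) and F10 (3.42-fold and 3.19-fold). HDAC1 was at 3 of these (5.56%), F5 (5.17-fold and 4.68-fold), APOM (4.76-fold and 4.70-fold) and SERPINA6 (3.56-fold and 4.02-fold). F5 thus carried both targets. Of 54 further enzymes and transporters, H4K12la was at 1 (1.85%), MAT1A (3.45-fold and 3.46-fold), which makes S-adenosylmethionine. HDAC1 was at 2 (3.7%), FAH of tyrosine breakdown (5.83-fold and 6.47-fold) and ASGR1, the asialoglycoprotein receptor (4.45-fold and 3.83-fold). These 6 shares stand beside 10.5% (H4K12la) and 8.18% (HDAC1) of all protein-coding genes, and no test of the difference was made. Single libraries did not all lie lower, since the 25 transcription factors had gene-end H4K12la in replicate 2 at 5 (20%, beside 19.5%) and HDAC1 in replicate 1 at 5 (20%, beside 14.8%). No gene-end peak in any list was found at 15 of the 25 factors (60%), 44 of the 54 secreted proteins (81.5%) and 49 of the 54 enzymes (90.7%), beside 70.9% of all genes.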

How the data were processed

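Per the labels, CUT&Tag libraries were made from HepG2 cells against 3 targets, 2 replicates per target as titled. Per the submitters' processing notes, FastQC, Bowtie2, MACS2 and deepTools were used with build hg38. For versions, settings and any control library, the sources used here give nothing. The authors deposited 1 peak list per library, with a fold enrichment (a ratio over background), the -log10 of p and q values, and a score (a whole number within 1 of 10-fold the -log10 q). All lists end near a -log10 q of 2. Depth is unknown, and the number of peaks limits each list.

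Peaks on 24 chromosomes were matched with Python 3.11.15, pandas 2.3.3 and numpy 2.4.6 to 19866 protein-coding RefSeq genes; 718 gene entries on other sequences were left out. Sharing 1 bp counted as overlap, and a target counted where both replicates had a peak. Strand and starts came from the RefSeq promoter table (40 members). No count was filtered and no test was run. Calls were tested on simulated data with planted peaks. All members could be named; the naming rule put first those with a gene-end peak in both replicates, then the 10 per target with the strongest body or distal peaks in both, then those with no peak within 50 kb, and up to 4 genes of each wider list. Members with 1-library peaks were added after their values were seen. Members, lists and windows were chosen with earlier results of these data known. Alternatives tried were other windows, a stricter q, summits, equal lists, listed starts, overlapping replicate peaks and single replicates.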

Additional observations from a re-analysis of the deposited data

How the results depend on the processing

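Of 86 alternatives of 12 counts of genes, 64 stayed within 1.5 times the count given. That number overstates stability, because many counts had little room to move. ENO1 counts of 0 could not fall. Among 52 genes, the counts without a peak, 38 at gene ends and 40 in bodies, could not rise by 1.5 times. With equal lists they were 51 and 50 and still counted as unmoved. Shares of all protein-coding genes under the same alternative stand in brackets, and those for single replicates and overlapping peaks are given above. At a -log10 q of 5 or more, gene-end counts were 4 for H4K12la (6.11%) and 1 for HDAC1 (6.31%), gene-body counts 3 (7.6%) and 1 (6.09%), and the H4K12la count within 50 kb was 7 (18.3%). With equal lists of the 1189 best peaks per library, H4K12la had 1 gene at gene ends (1.16%), 1 in bodies (1.56%) and 1 within 50 kb (4.11%). HDAC1 then had 0 (1.47%), 1 (1.36%) and 2 (5.84%), and 43 genes had no peak within 50 kb (79.3%). With gene-end windows of 2 kb, HDAC1 had 5 genes (8.86%), adding SERPINA1 and ASS1. Within 100 kb HDAC1 had 19 genes (37.5%), and 8 genes had no peak in any list (23.2%). Within 1 kb of listed starts only, H4K12la had 4 of the 40 members with a start, beside 11.8% of all genes with a start (9.42% of all protein-coding genes). Single replicates gave 0 for ENO1, 8 for H4K12la and 3 to 9 for HDAC1 at gene ends. In gene bodies they gave 0 to 1, 6 and 5 to 9, and within 50 kb 0 to 2, 17 to 25 and 15 to 21. Where peaks of both replicates had to overlap, a choice made after seeing the data, the counts within 50 kb were 13 for H4K12la and 11 for HDAC1. All 10 fold enrichments at gene ends were the same when the peak of highest -log10 q was taken. Shorter windows, fewer peaks and single replicates change these counts by construction. No paired analysis was possible because these results come from no test. Counts of 7 and 3 genes and lists without known depth limit what can be told apart.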

Other observations

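Lineage factors of other tissues included PAX6 of the eye and brain, MYOD1 of muscle and GATA1 of blood. At 26 of 26 such genes no gene-end peak was found in any of the 6 lists, beside 70.9% of all protein-coding genes. The list was chosen with earlier results of these data known, and the difference was not tested. Within 50 kb, 18 of these 26 genes (69.2%) had no peak, whereas 38.5% of the hepatocyte identity genes and 34.9% of all genes had none. Both replicates had a peak there at 4 for H4K12la (15.4%, beside 30.8% of all genes) and 3 for HDAC1 (11.5%, beside 26.4%).

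Markers of other liver cell types, listed for bile duct, macrophage, endothelium, stellate and blood cells, had gene-end H4K12la in both replicates at 2 of 18 genes (11.1%, beside 10.5% of all protein-coding genes). These were ACTA2 (4.29-fold and 4.21-fold), a smooth muscle actin, and EPCAM (3.44-fold and 3.66-fold), an epithelial adhesion protein. HDAC1 was in both replicates at 0 of 18 (beside 8.18%). The H4K12la share is near that of all genes.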
